A study of Mus musculus with 4 samples.

Results

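The genes described here encode the subunits of the oxidative phosphorylation machinery. They were chosen by symbol alone: protein-coding mouse genes whose symbols begin with mt-Nd, mt-Co, mt-Cytb or mt-Atp, with Nduf followed by a, b, c, s or v and a number, with Uqcr, with Cox4 to Cox8 or with Atp5, and the genes *Sdha* to *Sdhd*. The rule found 97 genes among the 52636 of the count files, 13 on the mitochondrial genome and 84 in the nucleus. A further 12 symbols matched but belonged to pseudogenes or non-coding transcripts and were left out. Subunits named otherwise, such as *Cyc1* and *Ndufab1*, are outside the rule.

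The study compared cells of the *Eya1* lineage of the embryonic mouse kidney with and without the transcription cofactor Eya1, which nephron progenitor cells (NPCs) need for their maintenance. Controls were Eya1CreER;tdTomato and mutants, *Eya1*cKO, were Eya1CreER;Eya1 fl/fl;tdTomato, on a mixed C57BL/6J and 129/Sv background, so both groups carry the CreER knock-in and the tdTomato reporter. Kidneys of E12.5 to E12.75 embryos were taken about 48 hours after tamoxifen was first given, those of several litters were combined by genotype, and 5000 tdTomato+ cells were sorted for each of the 2 control and 2 *Eya1*cKO libraries. The libraries of a genotype are portions of 1 pool of cells, so P values and intervals measure the spread between portions, which may be technical. Between 17457452 and 37999342 reads per library lay on genes, with the *Eya1*cKO libraries the shallower, and *Eya1* itself stood at 8.08% of its control mean. Levels are CPM, a gene's counts scaled to a common library total with TMM factors. A gene is called changed at an adjusted P under 0.05 by the edgeR quasi-likelihood test over all 19041 genes that passed the filter on low counts.

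Oxidative phosphorylation takes place at the inner mitochondrial membrane. Complexes I and II pass electrons from NADH and succinate to ubiquinone, complex III passes them on to cytochrome c and complex IV to oxygen, and complex V, the ATP synthase, uses the proton gradient that complexes I, III and IV build to make ATP. Complex II is encoded by the nucleus alone, whereas the other 4 combine nuclear subunits with subunits made inside the organelle. NPCs are known for a strong reliance on glycolysis, and mature tubules for reliance on mitochondrial respiration.

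Few of these genes were called changed in *Eya1*cKO. Of the 92 members tested, 2 were called, *mt-Nd1*, which fell, and *Sdhc*, which rose. This is 2.17% of the members tested, against 9.56% of all genes tested, of which 839 fell and 981 rose. Most members are abundant, and among the 10400 genes with a mean of at least 10 CPM the share called was 15.4%, against 2 of 81 members at that level. At an unadjusted P under 0.05, 9 members were lower and 8 higher in *Eya1*cKO, 17 of 92, against 28.8% of all genes tested, 14.6% lower and 14.2% higher. DESeq2 called 3 of the 79 nuclear and 1 of the 13 mitochondrial members tested, against 14.4% of all genes tested. The groups of libraries did not overlap for 38 of the 92 members, 41.3%, against 55.3% of all genes tested. No test of the difference between these shares was made.

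Among genes with a mean of at least 10 CPM, the median standard error of the log2 fold change was 0.17 over the 81 members and 0.20 over all 10400. The 95% interval of the fold change lay wholly within a 1.5-fold change in either direction for 46 of these 81 members, the called *mt-Nd1* among them, against 2705 of the 10400 genes, a count that depends on the size of the estimates as well as on their precision. For the other members a change of that size is not excluded by the interval. An estimated fold change beyond 1.5 was found for 14 of all 92 members tested, 15.2%, against 45.4% of all genes tested.

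The summed levels were close in the 4 libraries. The 13 mitochondrial genes together took 2.31% and 2.15% of the gene counts of controls 1 and 2, against 2.30% and 2.10% of those of *Eya1*cKO 1 and 2. The groups overlapped, and the difference of −0.0324 percentage points was smaller than the spread within either group (P = 0.667, two-sided exact permutation test, n = 2 per group, where the smallest P possible is 0.333). The 84 nuclear genes took 0.732%, 0.733%, 0.734% and 0.752% in the same order. The *Eya1*cKO values were above both controls, by a difference of 0.0110 percentage points in the means (P = 0.333, exact permutation, the smallest this design can give). The choice of denominator matters for the mitochondrial share. Set against all reads recorded, it was 1.56%, 1.47%, 1.24% and 1.17%, lower in both *Eya1*cKO libraries (exact permutation P = 0.333), in which more reads lay on no gene (22.7% and 20.9%, against 13.9% and 12.9%) or were not aligned (12.9% and 12.7%, against 6.32% and 6.69%).

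**Figure D1:**
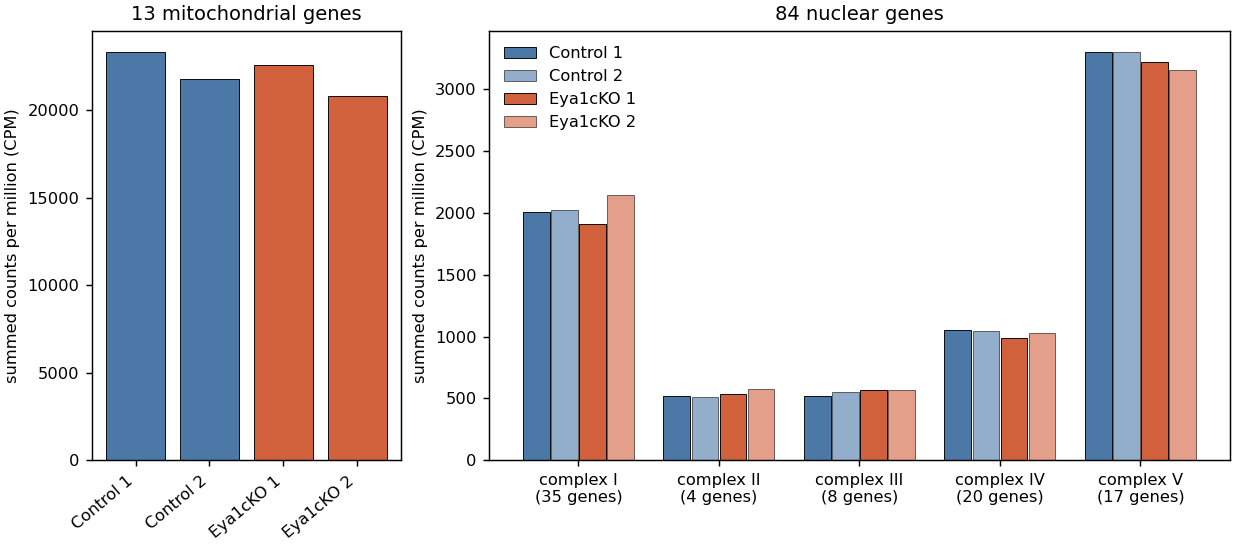
Summed level in CPM of the 13 mitochondrial genes (left) and of the nuclear genes of each complex (right), 1 bar for each library, blue for control and red for Eya1cKO. The mitochondrial sums run from 20809 to 23345 CPM with the groups overlapping, and the nuclear sums of complex V lie between 3150 and 3299 CPM.

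Markers of several cell types differed between the genotypes. All 8 NPC markers fell, 1 of which is the deleted gene *Eya1* itself (180 against 14.6 CPM on average), with their summed level going from 1595 and 1597 CPM in the controls to 261 and 247 CPM in *Eya1*cKO. Podocyte markers (877 and 898 against 2767 and 2823 CPM) and the 6 adrenal cortex markers (15.5 and 11.2 against 696 and 669 CPM) were higher, as were the 6 sympathoadrenal markers (4.54 and 7.86 against 507 and 537 CPM). Of the other markers, edgeR called 5 of 6 for proximal tubule and 4 of 6 for renal stroma higher. Of 6 for ureteric bud, edgeR called 2 lower and DESeq2 called 3, while 1 was estimated higher, above both controls in both *Eya1*cKO libraries. For macrophages 0 of 6 were called by edgeR or DESeq2, with 1 higher at an unadjusted P under 0.05. The 6 erythroid markers failed the filter, at summed levels from 0 to 1.37 CPM. Steroid-making and proximal tubule cells are known for abundant mitochondria. In bulk samples fewer cells of a type and less RNA per cell cannot be told apart, and the part of these differences in the values of the subunit genes was not tested.

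Several mitochondrial genes share their sequence with a copy in the nucleus. The copied stretch lies on chromosome 1 at chr1:24611535-24616197 (GRCm38), where 7 pseudogenes are annotated. A read of 75 bases, the read length of the study, fits both places equally well where the copy is exact. The pseudogenes of *mt-Co1* and *mt-Nd3* differ from them at 6 and 1 bases, and the other 5 at 0. The example below from *mt-Atp6*, at chrM:8227-8301, is letter for letter the same as the stretch of the pseudogene *Gm10925* at chr1:24614277-24614351 on the minus strand. The stretch of *mt-Co1* at chrM:6364-6438 crosses the edge of the copy, and its capitals mark the part that is also in the pseudogene *Gm29216*. The stretch of *mt-Nd1* at chrM:3051-3125 has no match in another annotated transcript.
mt-Atp6: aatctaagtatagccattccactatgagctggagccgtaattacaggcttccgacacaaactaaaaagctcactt
mt-Co1: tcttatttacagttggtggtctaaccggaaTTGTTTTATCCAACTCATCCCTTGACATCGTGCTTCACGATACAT
mt-Nd1: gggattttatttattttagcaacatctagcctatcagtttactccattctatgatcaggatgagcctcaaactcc

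The mitochondrial genes fell into 2 classes of level. *mt-Nd1*, *mt-Nd2*, *mt-Nd4*, *mt-Nd5*, *mt-Nd6*, *mt-Cytb* and *mt-Co1* had over 1000 reads in every library, and means between 1127 and 5743 CPM in the controls. *mt-Nd3*, *mt-Nd4l*, *mt-Co2*, *mt-Co3*, *mt-Atp6* and *mt-Atp8* had fewer than 1000 reads in every library, although they lie on the same long transcript of the heavy strand as most of the others. Of all 75-base windows of a gene, the share found in a transcript of another gene was 99.9% for *mt-Co3*, 99.5% for *mt-Co2* and *mt-Atp6*, 98.7% for *mt-Nd4l* and 97.8% for *mt-Nd3*. Among the abundant genes it was 61.5% for *mt-Nd4*, 39.8% for *mt-Co1* and between 0 and 5.71% for the other 5. *mt-Atp8* had no such window, but it is 204 bases long, shares 43 bases with *mt-Atp6*, and the 233 bases between the pseudogenes that match *mt-Atp6* and *mt-Co2* carry no annotated gene. Reads recorded as aligned more than once were kept in a row of their own that names no gene, without the places that they came from, and the part of shared sequence in these counts was not tested, so the low counts are not read as low expression. The 7 pseudogenes together held 650 and 889 reads in the controls and 328 and 194 reads in *Eya1*cKO, so few reads were assigned to them.

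*mt-Nd1*, at chrM:2751-3707, encodes a membrane subunit of complex I at the site where ubiquinone is bound. It stood at 4056 and 3724 CPM in the controls against 3269 and 2894 CPM in *Eya1*cKO. Both *Eya1*cKO libraries lay below both controls, and the mean went from 3890 ± 235 to 3082 ± 265 CPM (SD, n = 2), 79.2% of the control mean. The log2 fold change was −0.34 ± 0.07 (SE), with a 95% interval from −0.50 to −0.17 (edgeR quasi-likelihood test, adjusted P = 0.030). It was the member called under most of the other ways of processing, 11 of 15 counting the main one, but not with legacy quasi-likelihood, with the controls thinned to the *Eya1*cKO depth, or when either control was left out (log2 fold changes between −0.44 and −0.27 over the 4 omissions).

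*mt-Nd2*, its neighbour on the genome and another membrane subunit of complex I, had 1829 and 1745 CPM in the controls against 1630 and 1616 CPM in *Eya1*cKO. The groups did not overlap, but the log2 fold change of −0.14 ± 0.05 was not called (edgeR, adjusted P = 0.125). *mt-Nd6*, the only member on the light strand, was the abundant mitochondrial gene whose *Eya1*cKO libraries both lay above the controls, at 1226 and 1190 CPM against 1175 and 1079 CPM, and it was not called either (log2 fold change 0.10 ± 0.06, edgeR adjusted P = 0.325). Without a stated strand setting, its reads cannot be told apart from those of the opposite strand.

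The other 4 abundant mitochondrial genes overlapped between the groups. *mt-Cytb*, the cytochrome b of complex III and the highest of the members per kilobase (5020 CPM per kb in the controls, 5006 in *Eya1*cKO), had 6021 and 5465 CPM in the controls against 5989 and 5465 CPM in *Eya1*cKO. *mt-Co1*, which holds the site of complex IV where oxygen is reduced, had 4289 and 4075 against 4445 and 4132 CPM. *mt-Nd5* had 4205 and 4000 against 4258 and 3982 CPM, and *mt-Nd4*, like *mt-Nd5* a membrane subunit of complex I related to proton pumps, had 1743 and 1656 against 1749 and 1504 CPM. Their log2 fold changes ran from −0.06 to 0.04. For all 7 abundant genes the 95% interval lay within a 1.5-fold change.

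The 6 sparsely counted genes were all estimated lower in *Eya1*cKO, by −0.55 to −1.24 on the log2 scale, and 0 were called by edgeR, 0 by DESeq2 and 0 at an unadjusted P under 0.05. *mt-Atp6*, the channel subunit of complex V, had 4.63 and 13.4 CPM in the controls against 3.31 and 4.61 CPM in *Eya1*cKO. *mt-Co2*, which takes electrons from cytochrome c, had 13.1 and 26.3 against 11.5 and 12.3 CPM, and *mt-Co3* 4.69 and 12.0 against 3.53 and 3.87 CPM. In all 6 genes control 2 was the highest of the 4 libraries, and control 1 lay nearer to both *Eya1*cKO libraries than to control 2. The median log2 fold change over the 13 mitochondrial genes, −0.34, was the value of *mt-Nd1*, with the 6 sparse genes below it. The median was −0.00 over the 7 abundant genes and −0.89 over the 6 sparse ones, beside 0.02 over all genes tested, and that over all 13 was −0.09 without control 2.

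**Figure D2:**
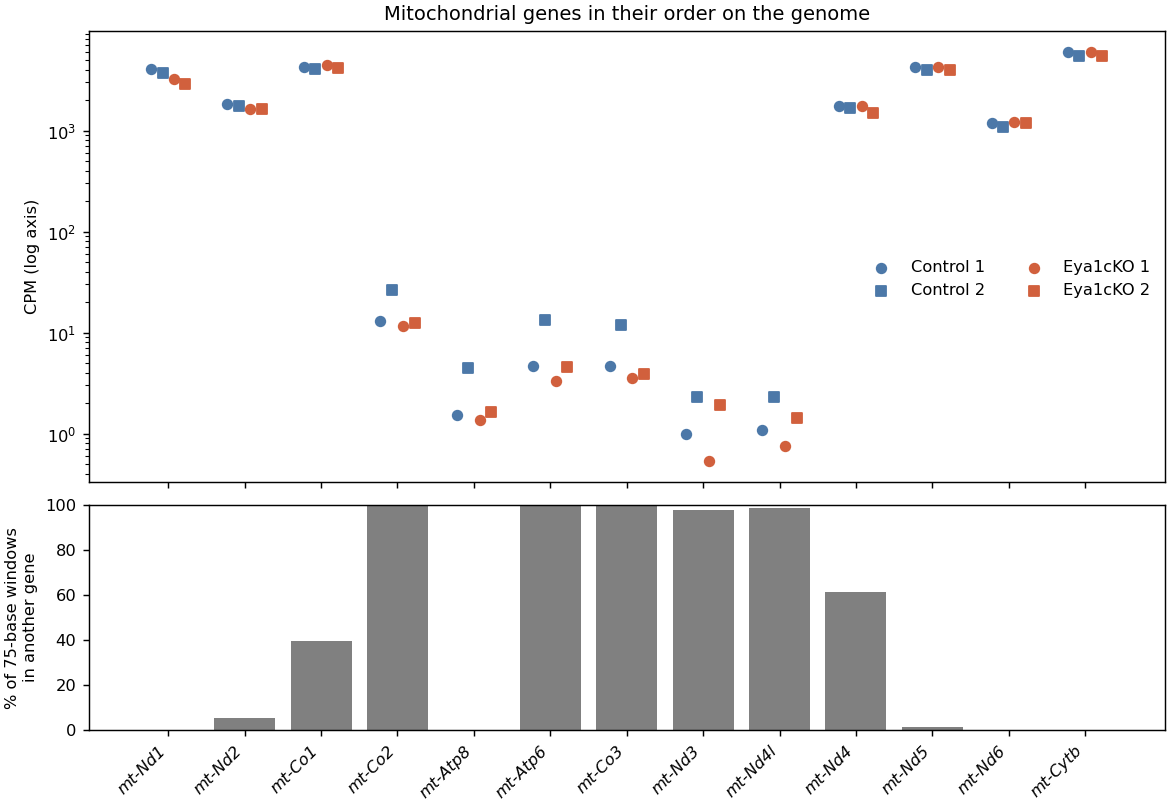
Level in CPM (log axis) of each mitochondrial gene in each library, in genome order, with blue for control, red for Eya1cKO, circles for replicate 1 and squares for replicate 2. The lower bars give the percentage of the gene's 75-base windows that occur in another gene's transcript. Genes with 97.8% to 99.9% of windows shared have fewer than 1000 reads in every library, and mt-Nd1 shows both Eya1cKO libraries below both controls.

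Of 24 mitochondrial ribosomal and transfer RNA rows, which are no members, 12 were listed at 0 in every library and 5 were tested. Of these 5, 1 was called and it rose, 20% against 9.56% of all genes tested. This was *mt-Rnr1*, an RNA of the mitochondrial ribosome, which went from 265 and 241 CPM to 341 and 333 CPM (log2 fold change 0.42 ± 0.08, edgeR adjusted P = 0.027), a call kept in 11 of 15 ways of processing. *mt-Rnr2* had 1192 and 1123 CPM in the controls against 1334 and 1156 CPM in *Eya1*cKO and was not called (adjusted P = 0.401). The libraries were made after purification of mRNA, so these values are of what passed that step.

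Among the 84 nuclear genes, 79 passed the filter on low counts. Their log2 fold changes had a median of 0.00 (quartiles −0.20 and 0.13), beside 0.02 over all genes tested, with 38 below and 41 above zero. *Sdhc* was called, which is 1.27% of them. In complex II, *Sdhc* encodes a membrane anchor that helps to bind heme and ubiquinone, and lies at chr1:171127165-171150603. It stood at 66.2 and 69.4 CPM in the controls against 96.5 and 140 CPM in *Eya1*cKO. Both *Eya1*cKO libraries lay above both controls but were themselves far apart, and the mean went from 67.8 ± 2.23 to 118 ± 31.1 CPM (SD, n = 2). The log2 fold change was 0.78 ± 0.19, with a 95% interval from 0.34 to 1.22 (edgeR, adjusted P = 0.045). No other annotated gene shares its exons or a 75-base window with it, and it was called under 8 of 15 ways of processing, the main one included. It was 0.49 without *Eya1*cKO 2 and 1.04 without *Eya1*cKO 1, and the call was lost without either control.

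The other genes of complex II were not called, and their estimates did not share a direction. *Sdhd*, the second membrane anchor, had 78.9 and 79.9 CPM in the controls against 93.5 and 79.2 CPM in *Eya1*cKO, and the groups overlapped (log2 fold change 0.13 ± 0.14). *Sdha*, the flavoprotein that oxidises succinate, had 258 and 248 against 252 and 269 CPM, with a log2 fold change of 0.04 and an interval from −0.16 to 0.24. *Sdhb*, the iron-sulfur subunit, had 117 and 112 against 92.8 and 90.5 CPM. Both *Eya1*cKO libraries of *Sdhb* lay below both controls, and it was not called (log2 fold change −0.32 ± 0.11, edgeR adjusted P = 0.122).

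Complex I has 35 nuclear members, of which 34 were tested and 0 called by edgeR. At an unadjusted P under 0.05, 2 of the 34 were lower and 5 higher, against 14.6% lower and 14.2% higher of all genes tested. DESeq2 also called 0 of the 34. The log2 fold changes ran from −0.65 for *Ndufs5* to 0.68 for *Ndufb2*, with a median of 0.02. *Ndufa5*, an accessory subunit of the arm that oxidises NADH, had the smallest P of them, with 32.7 and 32.6 CPM in the controls against 47.4 and 49.7 CPM in *Eya1*cKO. The replicates of each group agree within 3 CPM, and the difference was not called (0.57 ± 0.18, edgeR adjusted P = 0.093). *Ndufs1*, the large iron-sulfur subunit of the same arm, had 132 and 129 against 151 and 169 CPM (0.29 ± 0.11, adjusted P = 0.130). *Ndufb2* had 13.1 and 10.2 CPM in the controls, 13.03 CPM in *Eya1*cKO 1 and 25.4 CPM in *Eya1*cKO 2, so its estimate came from 1 library.

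Complex III has 8 nuclear members, all tested and 0 called by edgeR or DESeq2. At an unadjusted P under 0.05 there was 1 member, against 28.8% of all genes tested. *Uqcrfs1*, the Rieske iron-sulfur protein, had 123 and 118 CPM in the controls against 97.5 and 114 CPM in *Eya1*cKO (−0.20 ± 0.12). *Uqcrc2*, a core protein, had 106 and 108 against 112 and 119 CPM (0.11 ± 0.11). *Uqcrc1*, the partner of *Uqcrc2* in the same core, was listed at 33, 32, 10 and 16 reads, below 1 CPM in every library. *Uqcrc1* and *Uqcrc2* are built into the complex together, and *Slc26a6*, an annotated neighbour of *Uqcrc1*, was listed at 0 in all libraries, whereas *Col7a1* on the other side was listed at 663, 614, 511 and 215 reads. The low value of *Uqcrc1* is not read as a level of expression.

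Complex V has 17 nuclear members, all tested, with 0 called by edgeR and 1 by DESeq2. At an unadjusted P under 0.05, 2 were lower, against 14.6% of all genes tested. The log2 fold changes of the members were below zero for 13 of 17 (median −0.05, lowest −0.41). Over all genes tested, 9311 of 19041 were below zero (median 0.02). *Atp5a1* and *Atp5b*, which form the catalytic head of the enzyme, were the most abundant nuclear members by CPM. *Atp5a1* had 1022 and 989 CPM in the controls against 1007 and 930 CPM in *Eya1*cKO (log2 fold change −0.05, interval −0.20 to 0.09). *Atp5b* had 924 and 924 against 909 and 983 CPM (0.03, interval −0.11 to 0.18). For both the interval, which holds only the spread between portions, lies within a 1.5-fold change. *Atp5f1*, part of the stalk that holds the head in place, was the nearest to a call, with 142 and 149 against 108 and 111 CPM (−0.41 ± 0.11, edgeR adjusted P = 0.055). It was called by DESeq2 and when every library had to hold at least 10 counts, and 26.6% of its windows occur in another gene.

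Complex IV has 20 nuclear members, of which 16 were tested, with 0 called by edgeR and 1 by DESeq2. At an unadjusted P under 0.05, 2 were lower and 1 higher, against 14.6% lower and 14.2% higher of all genes tested. The median log2 fold change was 0.01. *Cox5a*, which is found in all tissues, had 56.3 and 60.6 CPM in the controls against 39.1 and 41.7 CPM in *Eya1*cKO (−0.54 ± 0.17, edgeR adjusted P = 0.093). The groups did not overlap. *Cox5b* had 113 and 105 against 118 and 119 CPM (0.12 ± 0.11).

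**Figure D3:**
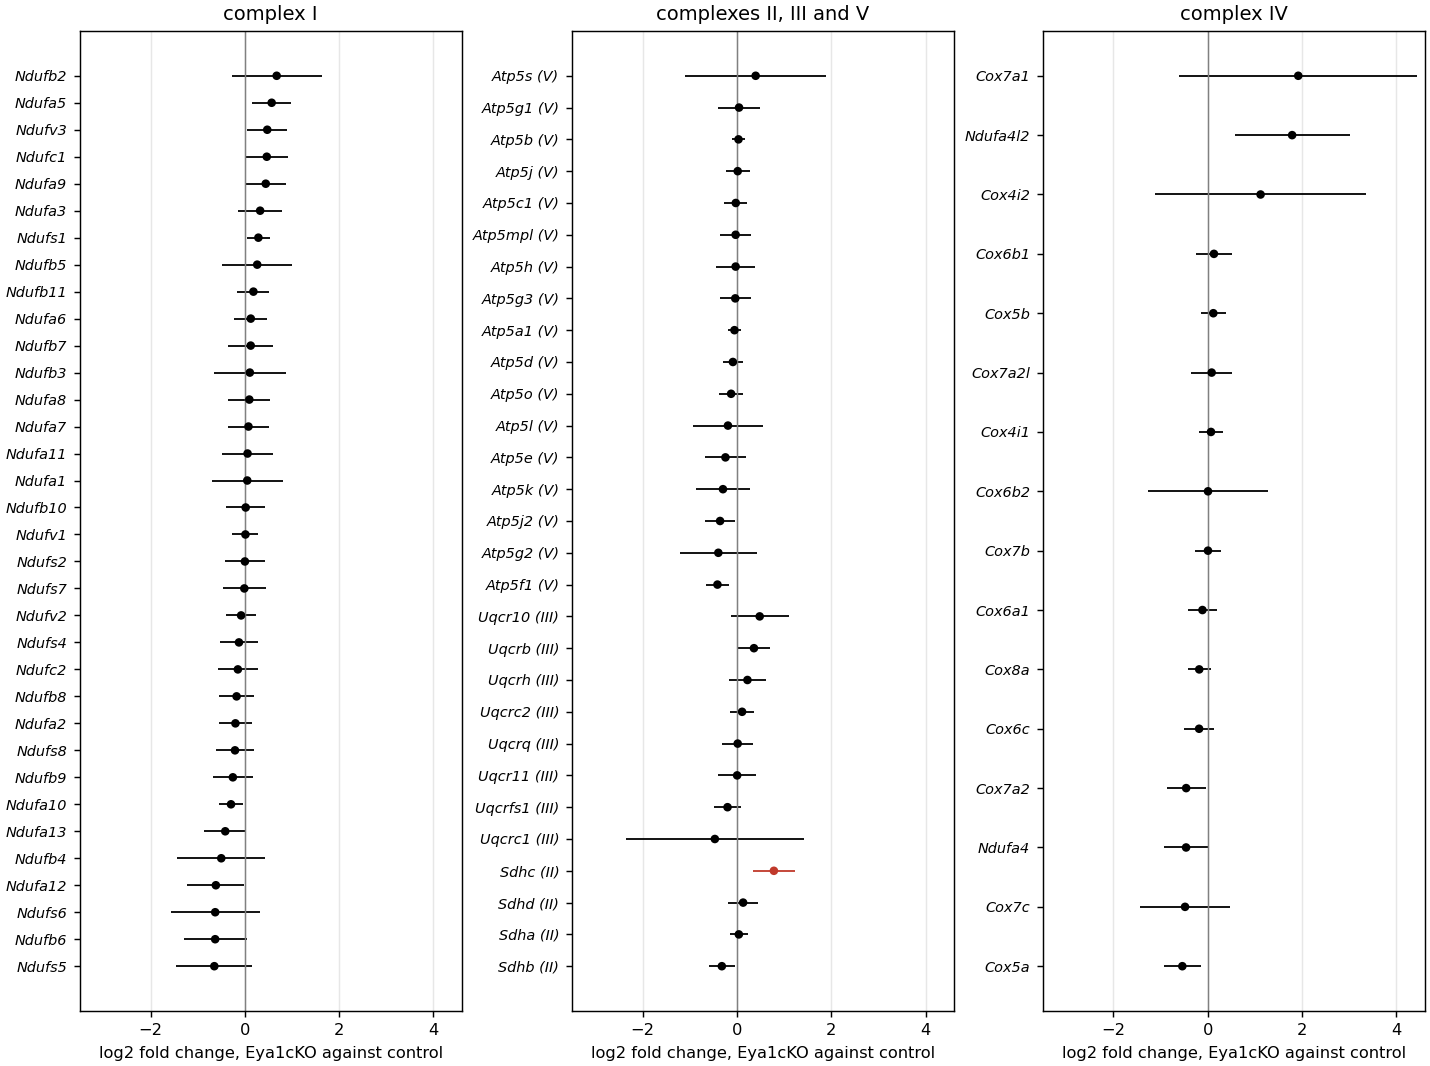
Log2 fold change of each of the 79 nuclear members tested, Eya1cKO against control, with its 95% interval, ordered by size within a complex. Sdhc, in red, is the gene with an adjusted P under 0.05, and Cox7a1, Ndufa4l2 and Cox4i2 have the highest estimates, 1.92, 1.79 and 1.12.

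Several subunits exist in alternative forms made by separate genes, some of them kept for heart, skeletal muscle, lung or testis. The share of the general form differed between the groups of genes. *Cox4i1* took between 95.1% and 99.4% of the counts of the Cox4i pair, and *Cox8a* between 98.1% and 100% of those of the Cox8 genes. *Cox6a2*, *Cox7b2* and *Cox8c* were listed at 0 in every library. The assembly factors *Cox20*, *Sco2* and *Pet117* and the mitochondrial ribosomal protein *Mrpl53*, which are not tied to 1 tissue, were also listed at 0 in every library, so these zeros are not read as absence of expression.

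*Ndufa4l2*, at chr10:127514967-127517154, and *Ndufa4* are a pair of paralogues. *Ndufa4*, long listed with complex I and now placed in complex IV, had 51.6 and 52.1 CPM in the controls against 32.6 and 43.9 CPM in *Eya1*cKO (−0.46 ± 0.20, edgeR adjusted P = 0.176). *Ndufa4l2*, known to be induced by hypoxia, had 2.94 and 2.75 CPM in the controls against 11.1 and 8.25 CPM in *Eya1*cKO. Both *Eya1*cKO libraries lay above both controls for *Ndufa4l2* and below both for *Ndufa4*. Of the counts of the pair, *Ndufa4l2* took 5.40% and 5.002% in the controls and 25.4% and 15.8% in *Eya1*cKO. Its log2 fold change of 1.79 ± 0.51 was not called by edgeR (adjusted P = 0.078) and was called by DESeq2 and under that same stricter filter. *Ndufa4l2* is also known from the cells of small vessels. The 6 endothelial markers were all higher in *Eya1*cKO, with summed levels of 520 and 537 CPM in the controls against 928 and 993 CPM in *Eya1*cKO, and their part in the value of *Ndufa4l2* was not tested. The libraries hold cells sorted for tdTomato of the *Eya1* lineage, and what this gate removed was not measured.

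Other alternative forms were high in 1 library. *Cox7a1*, the form of heart and skeletal muscle, had 1.17 and 0.746 CPM in the controls, 0.839 CPM in *Eya1*cKO 1 and 7.17 CPM in *Eya1*cKO 2. *Cox4i2*, a form known from lung and responsive to oxygen, had 3.12 and 2.21 CPM in the controls, 1.19 CPM in *Eya1*cKO 1 and 11.6 CPM in *Eya1*cKO 2. Their log2 fold changes of 1.92 and 1.12 came from *Eya1*cKO 2 alone, and without it were −0.20 and −1.16. *Cox8b*, another muscle form, was removed by the filter, with 5 and 2 reads in the controls, 61 reads in *Eya1*cKO 1 and 0 reads in *Eya1*cKO 2. Striated muscle markers were low, with summed levels of 4.77 and 7.22 CPM in the controls against 13.4 and 2.79 CPM in *Eya1*cKO, and of the 5 tested 0 were called by edgeR or DESeq2, with 1 lower and 1 higher at an unadjusted P under 0.05.

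In the remaining groups no gene was called. *Cox7a2* had 52.5 and 57.6 CPM in the controls against 37.9 and 42.8 CPM in *Eya1*cKO without overlap (−0.46 ± 0.17, edgeR adjusted P = 0.139), while *Cox7a2l*, which takes part in assembling supercomplexes, had 43.7 and 38.2 against 42.9 and 43.8 CPM. *Cox6a1* (104 and 104 against 104 and 86.9 CPM), *Cox6b1* (66.8 and 61.2 against 76.8 and 62.0 CPM) and *Cox7b* (103 and 112 against 110 and 105 CPM) overlapped between the groups. *Cox6b2*, the testis form, was low, with 4.72 and 5.04 against 4.11 and 5.92 CPM. *Atp5g1*, *Atp5g2* and *Atp5g3* make the same mature protein of the rotor ring of complex V. *Atp5g3* took 72.8% and 74.97% of their counts in the controls and 75.6% and 74.0% in *Eya1*cKO, and none of the 3 was called.

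**Figure D4:**
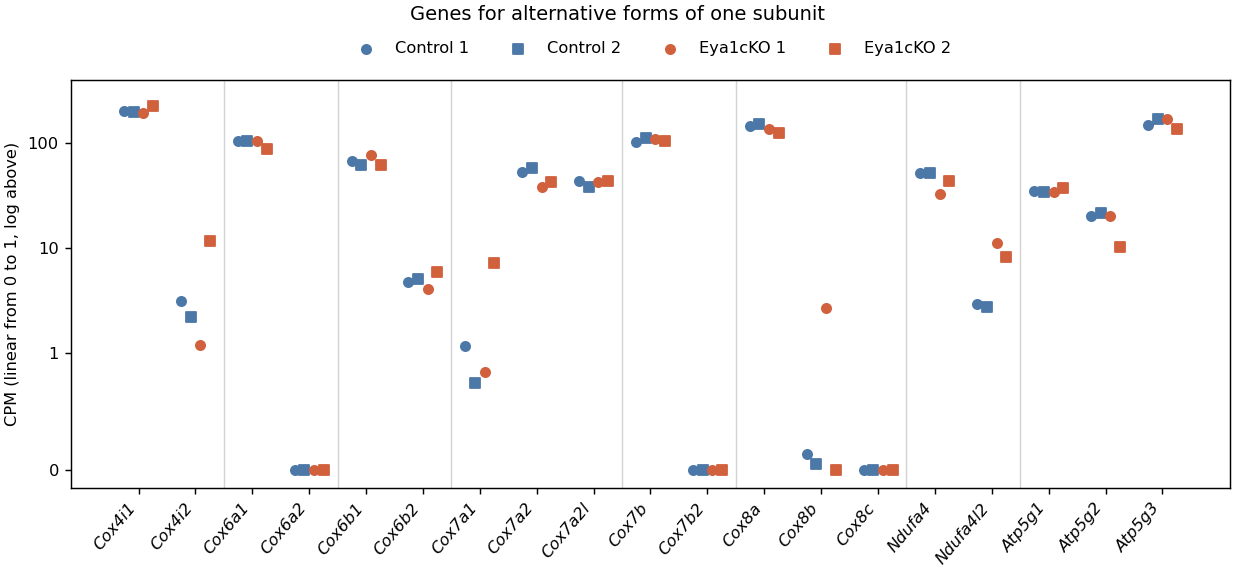
Level in CPM of each gene that encodes an alternative form of a subunit, in each library, with blue for control, red for Eya1cKO, circles for replicate 1 and squares for replicate 2 (axis linear from 0 to 1 and logarithmic above). Ndufa4l2 is higher in both Eya1cKO libraries, at 11.1 and 8.25 CPM, whereas Cox7a1 and Cox4i2 are high in Eya1cKO 2 alone.

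*Ndufs3*, an iron-sulfur subunit of the core of complex I, was the remaining member removed by the filter. It was listed at 95 and 4 reads in the controls and at 0 reads in both *Eya1*cKO libraries. The annotated neighbours *Kbtbd4* and *Ptpmt1* were also listed at 0 in all libraries, whereas *Mtch2*, farther off, was listed at 682, 833, 145 and 221 reads. The core of complex I cannot be built without *Ndufs3*, and its counts are not read as expression.

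Shared sequence also touched the nuclear members. Of the 84, 48 had no 75-base window in common with another transcript, whereas 18 shared at least 10% of their windows, 12 of them with a pseudogene among the partners, and *Atp5l* shared 75.96%. The 17 of these that were tested had a median log2 fold change of −0.39, with 13 below zero, and the 62 tested members under 10% had a median of 0.02, with 25 below zero. Over all protein-coding genes tested, the same medians were −0.06 for the 2236 genes with at least 10% of windows shared and 0.05 for the 12597 under it. Reads recorded as aligned to more than 1 place were 9.06% and 9.06% of all reads in the controls and 8.002% and 7.95% in *Eya1*cKO. The part of shared sequence in the members' values was not tested.

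For the nuclear members the *Eya1*cKO libraries differed from each other more than the controls did. Over the 79 nuclear members tested, the median absolute log2 difference between the libraries of a group was 0.08 for the controls and 0.25 for *Eya1*cKO, and it was larger in *Eya1*cKO for 63 of 79. Over the 14490 genes with at least 10 counts in every library the values were 0.13 and 0.41, whereas over the 13 mitochondrial members they were 0.14 and 0.13, larger in *Eya1*cKO for 5 of 13. When a control was left out, 0 nuclear members were called by edgeR, whereas leaving out *Eya1*cKO 1 or *Eya1*cKO 2 gave 20 and 25 calls, since the spread then came from the controls alone. These are 25% and 30.9% of the nuclear members tested, against 33.5% and 35.3% of all genes tested in the same fits.

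Promoters of the nuclear members held the letters of 3 known motifs, which the rule did not use, more often than promoters in general. RefSeq windows of GRCm38.p6, from 250 bases before to 50 after a gene's start, matched 66 of the 84 genes with 71 windows. The motif of nuclear respiratory factor 1 (NRF1), searched on both strands as CGCNTGCG, was in 39.4% of the members' windows and in 8.21% of all 32851 windows. The core CCGGAAG, bound by ETS factors such as the GABP complex, also called NRF2, was in 22.5% against 8.86%. The YY1 motif AAGATGGC was in 12.7% against 2.75%. At least 1 of the 3 was found in 62.0% of the members' windows and in 17.6% of all windows. The set of all windows was not matched to the members' windows in expression level or base composition. A match describes these letters and is no evidence of binding.

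The windows of 7 genes hold both the NRF1 and the ETS letters, and the 4 with the shortest span from the first to the last of all their NRF1 and ETS matches are shown, from just before that span to just after it, 5′ to 3′ along the gene, with the NRF1 and ETS matches in capitals. The stretch of *Atp5j* also holds the YY1 letters, left in lower case. All 4 genes lie on the minus strand, with *Sdhd* at chr9:50603884-50603932, *Atp5k* at chr5:108434376-108434453, *Uqcr11* at chr10:80406814-80406892 and *Atp5j* at chr16:84835026-84835128. *Sdhd* encodes a membrane anchor of complex II, *Uqcr11* a small subunit of complex III, and *Atp5k* and *Atp5j* subunits of the membrane part and the stalk of complex V.
Sdhd: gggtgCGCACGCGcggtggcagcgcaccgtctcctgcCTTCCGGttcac
Atp5k: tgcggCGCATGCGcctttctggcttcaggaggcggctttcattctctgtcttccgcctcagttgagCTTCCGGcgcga
Uqcr11: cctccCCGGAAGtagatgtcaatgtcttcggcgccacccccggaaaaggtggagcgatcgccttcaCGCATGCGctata
Atp5j: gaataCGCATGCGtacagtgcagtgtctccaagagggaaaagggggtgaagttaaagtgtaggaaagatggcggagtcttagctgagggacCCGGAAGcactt

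The medians of members with and without these letters lay close together. The 25 members with the NRF1 letters had a median log2 fold change of −0.03, the 15 tested with the ETS letters −0.11, the 9 with the YY1 letters −0.01, and the 23 tested whose windows hold none of the 3 had 0.01. In these sets 0 genes were called by edgeR or DESeq2. At an unadjusted P under 0.05 there were 2, 1, 3 and 4 genes in that order, against 28.8% of all genes tested.

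*Nrf1*, *Yy1* and the GABP genes encode the factors that are known to act through these letters. Of 13 transcriptional regulators of respiration, 1 was called by edgeR, which is 7.69% against 9.56% of all genes tested. This was *Pprc1*, a coactivator of NRF1 related to PGC-1α. It fell from 160 and 166 CPM to 124 and 118 CPM (log2 fold change −0.43 ± 0.10, edgeR adjusted P = 0.045), a call kept in 8 of 15 ways of processing. *Nrf1* had 90.3 and 86.3 CPM in the controls against 65.0 and 46.0 CPM in *Eya1*cKO (−0.65 ± 0.18, adjusted P = 0.066), and *Yy1* had 276 and 294 against 201 and 235 CPM (−0.39 ± 0.10, adjusted P = 0.055). Both were called by DESeq2, as *Pprc1* was (3 of 13, against 14.4% of all genes tested), and each was called in 4 of 15 ways of processing. The groups did not overlap for 9 of the 13 regulators, these 3 genes among them, with 7 lower and 2 higher in *Eya1*cKO. This is 69.2%, against 55.3% of all genes tested.

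The GABP subunits and the other coactivators were called by neither edgeR nor DESeq2. *Gabpa*, the subunit that binds DNA, had 123 and 118 CPM in the controls against 107 and 110 CPM in *Eya1*cKO (−0.16 ± 0.11), *Gabpb1* had 64.0 and 64.7 against 56.7 and 37.7 CPM, and *Gabpb2* had 134 and 138 against 149 and 83.5 CPM. *Ppargc1a*, which encodes PGC-1α, had 11.9 and 8.93 CPM in the controls against 23.0 and 10.9 CPM in *Eya1*cKO with the groups overlapping, and *Ppargc1b* had 16.03 and 16.4 against 13.5 and 6.49 CPM. *Esrrg*, a nuclear receptor that drives respiratory genes, had 8.97 and 9.81 against 13.3 and 18.9 CPM (0.75 ± 0.36, edgeR adjusted P = 0.226). *Esrra* (−0.23) and *Ppard* (0.30) also missed the threshold, and *Esrrb* and *Ppara* were below 5 CPM in every library. The median over the 13 was −0.20, beside 0.02 over all genes tested and −0.01 over those with a mean of at least 10 CPM.

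**Figure D5:**
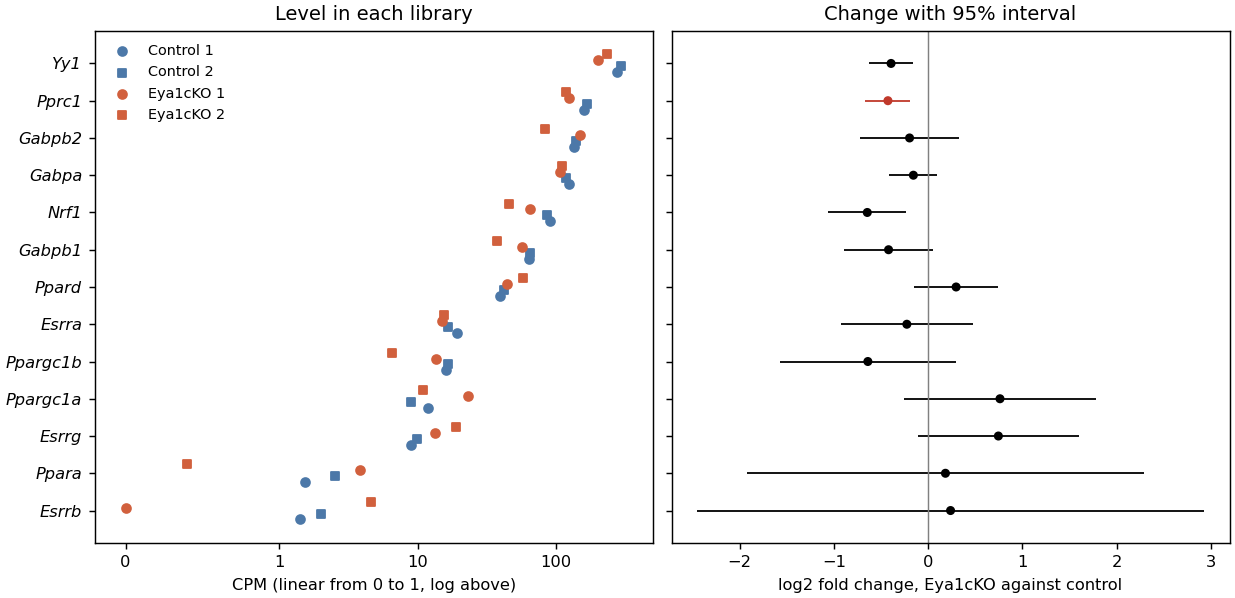
Level in CPM of 13 transcriptional regulators of respiration in each library (left, axis linear from 0 to 1 and logarithmic above) and the log2 fold change, Eya1cKO against control, with its 95% interval (right). Pprc1, in red, has an edgeR adjusted P under 0.05, and both Eya1cKO libraries of Nrf1 and Yy1 lie below both controls.

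The wider machinery of the mitochondrion was read against the same shares over all genes tested, 9.56% called by edgeR, 14.4% by DESeq2, and 14.6% lower and 14.2% higher at an unadjusted P under 0.05. Of 20 tested genes of the mobile carriers and of metabolite exchange, edgeR called 1 (5%), *Coq9*, needed to make ubiquinone, which rose from 23.7 and 25.7 CPM to 55.3 and 41.2 CPM (0.98 ± 0.22, edgeR adjusted P = 0.038), a call kept in 9 of 15 ways of processing. DESeq2 called 3 of them, *Coq9*, *Etfb* (log2 fold change by edgeR 1.57 ± 0.42), a subunit of the electron transfer flavoprotein, and *Slc25a4* (−0.24 ± 0.07), a carrier that exchanges ADP for ATP. Of 44 assembly factors, 0 were called by edgeR or DESeq2, with 3 lower and 2 higher at an unadjusted P under 0.05 and a median of −0.07. Of 17 genes of the citrate cycle and pyruvate dehydrogenase, 0 were called by edgeR and 1 by DESeq2 (*Cs*, citrate synthase), with 1 lower and 2 higher at an unadjusted P under 0.05 and a median of 0.07.

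Genes that express the mitochondrial genome and build the organelle had medians below zero, with shares called that lay on both sides of those over all genes. Of 27 genes of mitochondrial genome expression, 1 fell (3.70% called, against 9.56%), *Tbrg4* (also FASTKD4), which stabilises mitochondrial mRNAs, from 81.2 and 86.4 CPM to 53.2 and 52.5 CPM (−0.67 ± 0.14, edgeR adjusted P = 0.032), and the median was −0.30. Of 18 genes of import and membrane organisation, 2 fell and 0 rose by edgeR, which is 11.1% called against 9.56% of all genes tested, and the median was −0.17. *Hspa9*, the chaperone that pulls proteins into the matrix, went from 547 and 528 CPM to 442 and 425 CPM (−0.31 ± 0.07, adjusted P = 0.034), and *Timm50*, a receptor of the inner membrane translocase, from 64.3 and 74.9 CPM to 42.2 and 43.2 CPM (−0.71 ± 0.17, adjusted P = 0.045). DESeq2 called 4 of the 18, against 14.4% of all genes tested, namely these genes and *Tomm70a* (−0.39 ± 0.10) and *Hspd1* (−0.55 ± 0.15), both estimated lower. The call was kept in 10 of 15 ways of processing for *Tbrg4* and *Hspa9* and in 7 for *Timm50*. Of 76 mitochondrial ribosomal proteins, 0 were called by edgeR or DESeq2, 11 were lower and 0 higher at an unadjusted P under 0.05 (14.6% and 14.2% over all genes tested), and the median was −0.14.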

How the data were processed

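Reads of 75 bases from 1 end were mapped by the authors to mm10 with HISAT2 and assigned with HTSeq to Ensembl release 90 genes, per the labels and the methods of the study, and the deposited values are counts per gene without normalization. The kit was strand-specific, but the strand setting of the counting is not given in the sources used here. Exons of 39 of the 97 members overlap another gene, 12 of them by over 10% of their exonic length. Rows that name no gene (reads on no gene, ambiguous, not aligned or aligned more than once) were kept out of library sizes and tests, and most of their shares are given in the text. Ambiguous reads were 2.50% to 3.13% of all reads.

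The fit used edgeR 4.0.16 (R 4.3.3): filterByExpr (minimum count of 10), TMM, glmQLFit and glmQLFTest (legacy = FALSE) with genotype as the only term, and Benjamini-Hochberg adjustment over all genes tested. The fit was tested on simulated data. Each standard error is the size of the log2 fold change divided by √F. CPM per kb use the exonic length in GENCODE M21, which was also the source of positions and of the transcripts whose 75-base windows were compared. Depth ranged from 17457452 to 37999342 counts on genes. DESeq2 1.42.0 and other filters, scalings and fits were alternatives.

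Samples were grouped by the genotype in the labels. The members and lists were chosen with earlier results of these data known. Named were all mitochondrial members, called nuclear members, the 5 largest nuclear changes, all alternative forms, members removed by the filter, the regulators, and called genes of each list (up to 3 by P in each direction). Other genes were named for their role, size, DESeq2 call or zeros, after their values were seen. The NRF1 letters were shortened to the core of the motif after the shares with a longer form had been seen, and the longer form is not reported here. The labels and methods differ in how many kidneys and females were used, so those numbers are not given.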

Additional observations from a re-analysis of the deposited data

Results flagged for a closer look

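Signal outside the gene counts differed between the genotypes. Reads on no gene were 22.7% of all reads recorded in *Eya1*cKO 1 and 20.9% in *Eya1*cKO 2, above the 13.9% and 12.9% of the controls. Reads that were not aligned were 12.9% in *Eya1*cKO 1 and 12.7% in *Eya1*cKO 2, above the 6.32% and 6.69% of the controls. These reads lie outside the values of the subunit genes, but they decide whether the mitochondrial share is level between the genotypes (of gene counts) or lower in *Eya1*cKO (of all reads recorded). No group holds enough libraries for a search for outliers.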

How the results depend on the processing

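Each result was recomputed under 14 alternatives that could be run for the counts. The call of *mt-Nd1* held in 10 of them and that of *Sdhc* in 7, and their log2 fold changes kept their direction in all 14, from −0.44 to −0.27 and from 0.49 to 1.04, with adjusted P values from 2.6e-08 to 0.377 and from 2.4e-07 to 0.583. The count of all genes called was 1055 with no filter on low counts, 2734 with the DESeq2 Wald test, 1096 with legacy quasi-likelihood and 621 with the replicate block. Of the nuclear members, 0 were called with no filter, legacy or robust quasi-likelihood, the block, or controls thinned to the *Eya1*cKO depth, and 3 (*Sdhc*, *Ndufa4l2* and *Atp5f1*) with at least 10 counts in every library or DESeq2. Of the mitochondrial members, 0 were called with legacy quasi-likelihood or thinned controls. Leaving out 1 library at a time gave 23 to 7925 calls over all genes (23 without either control, 7414 without *Eya1*cKO 1 and 7925 without *Eya1*cKO 2), 0 to 25 nuclear calls and 0 to 3 mitochondrial calls, and a median over the mitochondrial members from −0.29 to −0.09. The lone library of a group was then assumed to vary like the other group. The mitochondrial share differed by −0.309 percentage points when set against all reads recorded, in which the *Eya1*cKO libraries hold more reads off genes; against gene counts without 1 library it ran from −0.135 to 0.0698. Same-numbered libraries shared a number only (correlation of their deviations 0.0062 over 19041 genes), so the block is given here alone. Scaling moved the median of all genes by less than 0.1, and the absence of a filter brought it to −0.21 with 31192 genes tested.

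Of 1006 recomputed values of named genes, 860 kept direction and side of the threshold, 51 gained a call, 46 lost it and 49 changed sign. The sign changed with library totals alone for *Atp5c1* (0.012), *Atp5g3* (0.00085) and *mt-Cytb* (0.032), with DESeq2 size factors and the Wald test for *mt-Cytb* (0.00628 and 0.00607), with no filter for *Cox6b2* (−0.0103), *Cox7b* (−0.012) and *mt-Nd5* (−0.0099), with at least 10 counts in every library for the same genes (−0.00691, −0.00791 and −0.00651), and with thinned controls for *Cox7b* (−0.00308), *Ppara* (−0.034) and *mt-Cytb* (0.0021). Leaving out 1 library turned the sign within these ranges of log2 fold change: −0.041 to 0.078 for *Atp5b*, −0.14 to 0.058 for *Atp5c1*, −0.018 to 0.087 for *Atp5g1*, −0.24 to 0.098 for *Atp5g3*, −0.56 to 0.026 for *Atp5l*, −0.061 to 0.18 for *Cox4i1*, −1.16 to 2.12 for *Cox4i2*, −0.055 to 0.25 for *Cox6b1*, −0.26 to 0.27 for *Cox6b2*, −0.20 to 2.90 for *Cox7a1*, −0.0300 to 0.16 for *Cox7a2l*, −0.074 to 0.0504 for *Cox7b*, −8.77 to 1.42 for *Esrrb*, −0.72 to 0.12 for *Gabpb2*, −2.37 to 0.89 for *Ppara*, −0.023 to 0.0795 for *Sdha*, −0.015 to 0.22 for *Sdhd*, −1.03 to 0.011 for *Uqcrc1*, −0.028 to 0.072 for *mt-Co1*, −0.088 to 0.046 for *mt-Cytb*, −1.67 to 0.19 for *mt-Nd3*, −0.19 to 0.025 for *mt-Nd4*, −0.054 to 0.038 for *mt-Nd5*, −0.012 to 0.19 for *mt-Rnr2*. The cause was not tested. With 2 portions of 1 pool per genotype, small changes of single subunits cannot be told from the spread between portions, and members below about 10 CPM have wide intervals.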
